A study of Mus musculus with 23 samples.

Results

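H/ACA box snoRNAs were examined in the small RNA of mouse hippocampal synaptosomes and of microfluidic chambers, as the names that start with SNORA in the snoRNA part of the count tables. They were 50 of 811 snoRNA names and 94 of 865 table entries. Another 673 names were predicted ones with GM numbers. RefSeq describes 450 predicted names as SNORA family, and they are not among the 50, so the 50 are not the whole class. At least 1 entry was typed H/ACA for 34 of the names, and no entry was so typed for the other 16. Synaptosomes, which are nerve endings that reseal when tissue is homogenized, came from the hippocampi of male C57B/6J mice aged 3 months without stimulation, in 3 pools (pools 1 to 3). Chamber RNA came from the cut-out channel into which neurites of CD1 hippocampal neurons grow and form synapses, taken from embryonic day 17 and cultured for 14 days in vitro, in 6 unstimulated libraries (C01, C04, C05, C07, C11 and C42). The total RNA of 3 synaptosome pools, of 8 control chambers and of 3 chambers given 50 mM KCl for 2 h was read as a second measurement. Mouse strain, age, preparation and library kit all differed between synaptosomes and chambers and cannot be told apart from the group. The labels do not say whether chamber libraries came from separate cultures, so p-values measure the spread between these libraries, which may be technical.

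H/ACA snoRNAs fold into hairpins joined by an H box and closed by an ACA box near the 3′ end. Bound to the pseudouridine synthase dyskerin (Dkc1) and its partners Nop10, Nhp2 and Gar1, they guide the change of uridine to pseudouridine, mostly in ribosomal RNA in the nucleolus. Most are cut from introns of host genes, many of which encode ribosomal proteins or belong to the non-coding Snhg genes, and some are cut further into microRNA-sized pieces. SNORA73A and SNORA73B, also known as U17, act in the processing of ribosomal RNA rather than in its modification, and SNORA35 is known from brain and lies in the serotonin receptor gene Htr2c.

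The snoRNA counts of a library came to 7680, 16305 and 15030 in pools 1 to 3 and to 7037 to 64276 in chambers, and levels are given as CPM, counts scaled to the same snoRNA total in every library, with no term for gene length. A single count stood for 130 CPM in pool 1 and for 15.6 CPM in C05, the deepest library. The composition of the libraries differed, with 0.732 to 1.17 snoRNA counts per 1000 microRNA counts in synaptosomes and 8330 to 88500 in chambers. Neuronal and astrocyte markers reached the study's cutoffs for total RNA, a mean of 50 CPM in synaptosomes and 100 CPM in chambers, in both kinds of sample (5 of 7 and 5 of 6 in synaptosomes, all 7 and all 6 in control chambers), as did 2 of 5 oligodendrocyte markers in each. Of 5 microglial markers, 1 reached the cutoff in synaptosomes (summed level 139 to 171 CPM) and 0 in chambers (2.37 to 199 CPM). The nuclear non-coding RNAs Malat1, Neat1, Meg3, Miat, Rian and Snhg11 together held 33.8 to 42.8 CPM in synaptosomes, with 0 of 6 at the cutoff, and 3930 to 42800 CPM in chambers, with all 6 at the cutoff. None of these RNAs and markers was at 0 in synaptosomes, whereas Mog, Cx3cr1, P2ry12, Tmem119 and C1qa were at 0 in some chamber libraries.

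Of 50 members, 36 had a gene in GENCODE vM21 (build GRCm38), with lengths of 121 to 205 bases and a median of 132.5. Sequences are shown for the members on which the results turn. The first 3 hold whole mature microRNAs, whose bases are in capitals. SNORA36B is Snora36b at chr1:185242907-185243038 (plus strand), in an intron of Rab3gap2 and over the hairpin of miR-664. SNORA19 is Snora19 at chr19:60774330-60774461 (minus strand), in an intron of Eif3a and over the hairpin Mir3084-2. SNORA34 is Snora34 at chr15:98519716-98519853 (minus strand), in an intron of Kansl2 and overlapping the hairpin of miR-1291. The 5p arm of miR-664 spans bases 69 to 89 and the 3p arm bases 106 to 127 of SNORA36B.
SNORA36B: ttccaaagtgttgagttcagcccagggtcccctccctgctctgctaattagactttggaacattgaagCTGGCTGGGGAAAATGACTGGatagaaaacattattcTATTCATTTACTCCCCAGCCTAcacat
SNORA19: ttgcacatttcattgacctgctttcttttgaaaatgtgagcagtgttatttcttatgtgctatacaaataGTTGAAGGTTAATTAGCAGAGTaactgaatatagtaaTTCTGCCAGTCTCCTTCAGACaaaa
SNORA34: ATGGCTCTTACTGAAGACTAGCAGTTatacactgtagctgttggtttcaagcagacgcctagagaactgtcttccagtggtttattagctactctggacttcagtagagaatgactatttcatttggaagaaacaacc

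The mature miR-664 arms, with the seed (bases 2 to 8) in capitals, are as follows in RefSeq (GRCm38), and their seeds differ.
miR-664-5p: cUGGCUGGggaaaaugacugg
miR-664-3p: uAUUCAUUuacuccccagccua

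In SNORA7A, at chr6:115807975-115808114 (minus strand, in the ribosomal protein gene Rpl32), the capitals mark bases 101 to 138, a run of 38 bases shared with the predicted snoRNA name GM27607, since counts of that name ran with SNORA7A in synaptosomes and not in chambers.
SNORA7A: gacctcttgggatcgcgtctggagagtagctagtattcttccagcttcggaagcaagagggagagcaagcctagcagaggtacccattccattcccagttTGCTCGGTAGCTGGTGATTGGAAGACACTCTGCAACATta

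In the others the capitals mark the letters ANANNA near the middle (the H box, searched on the RNA strand from 38% to 62% of the length) and ACA with at most 5 bases after it. They are SNORA41, the member of largest fitted fold among those higher in synaptosomes, SNORA44 and SNORA61 of the Snhg12 gene, and SNORA35. SNORA41 is at chr1:63179004-63179135 (plus strand, intron of the elongation factor gene Eef1b2). SNORA44 is at chr4:132309941-132310069 and SNORA61 at chr4:132310240-132310369, both on the plus strand, and SNORA35 at chrX:146994381-146994508 (plus strand, intron of Htr2c). The window holds 2 matches to these letters in SNORA41 and 3 in SNORA35, of which the one nearest the middle is marked. At the end of SNORA41 the letters ACA match at 2 overlapping places, of which the last is marked. The capitals thus show a match and not a mapped box. No such ACA was found in SNORA44 as annotated. The ACA was present in 40 of 42 Snora genes (95.2%), in 7.14% of Snord genes, which encode C/D box snoRNAs, and in 46.8% of 1507 snoRNA genes of GENCODE.
SNORA41: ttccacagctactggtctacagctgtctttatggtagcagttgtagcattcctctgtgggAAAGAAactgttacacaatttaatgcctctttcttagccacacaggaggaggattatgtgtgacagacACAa
SNORA44: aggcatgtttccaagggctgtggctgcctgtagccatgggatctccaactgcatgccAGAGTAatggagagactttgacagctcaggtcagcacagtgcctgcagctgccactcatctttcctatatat
SNORA61: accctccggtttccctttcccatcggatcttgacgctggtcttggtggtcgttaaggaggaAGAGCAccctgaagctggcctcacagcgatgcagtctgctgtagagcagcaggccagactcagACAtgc
SNORA35: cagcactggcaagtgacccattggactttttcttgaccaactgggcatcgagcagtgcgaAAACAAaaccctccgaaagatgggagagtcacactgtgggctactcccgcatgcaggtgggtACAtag

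SNORA names took a larger share of the snoRNA counts in synaptosomes than in chambers. The share was 27.3% (95% Wilson interval 26.3% to 28.3%), 33.2% (32.5% to 33.9%) and 31.6% (30.9% to 32.4%) in pools 1 to 3. In chambers it was 7.46%, 6.54%, 7.12%, 8.57%, 9.52% and 9.44% in C01, C04, C05, C07, C11 and C42. The intervals cover counting error alone, as PCR copies were not marked. Every pool lay above every chamber library. The means were 30.7% ± 3.09 (SD, n = 3) and 8.11% ± 1.25 (SD, n = 6), a difference of 22.6 percentage points (exact two-sided permutation test over 84 splits, p = 0.0238, the smallest this design gives). In each pool 2 names made up most of the share, SNORA36B with 10.5% to 12.3% and SNORA41 with 8.40% to 10.2% of all snoRNA counts, against at most 0.0853% and 0.0229% in chambers. In an alternative added once the data had been seen, these 2 names were left out, and the shares of the remaining counts were 8.65%, 13.8% and 14.1% in pools 1 to 3 and 6.45% to 9.47% in chambers. The groups then overlapped, and the difference of 4.14 points did not pass (exact permutation test, p = 0.0714). A fall of all other snoRNAs and a rise of these 2 cannot be told apart in shares, and neither can fewer cells of a type and less RNA per cell in bulk samples. In another alternative that was not planned, the predicted names that RefSeq describes as SNORA family were added. The share was then 39.4% ± 5.36 (SD, n = 3) in synaptosomes and 12.2% ± 1.88 (SD, n = 6) in chambers (exact permutation test, p = 0.0238). C/D box SNORD names took 8.47% ± 2.37 (SD, n = 3) of the counts in synaptosomes and 26.9% ± 1.40 (SD, n = 6) in chambers.

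**Figure D1:**
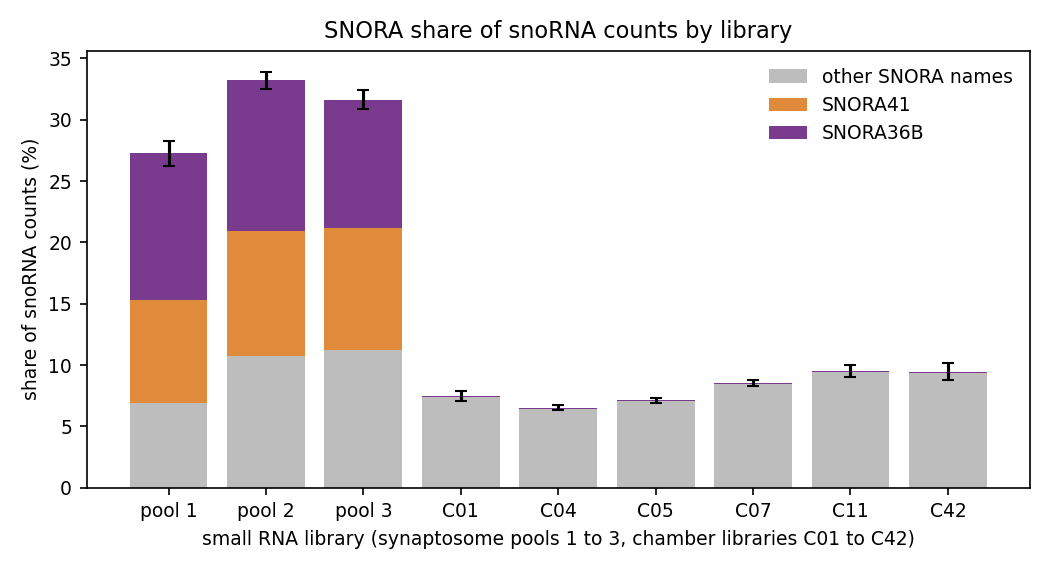
Share of snoRNA counts (%) taken by SNORA names in each small RNA library, stacked as SNORA36B, SNORA41 and all other SNORA names, with 95% Wilson intervals of the total as error bars. The 3 synaptosome pools lie between 27.3% and 33.2% and the 6 chamber libraries between 6.54% and 9.52%, and SNORA36B and SNORA41 are visible in synaptosomes only.

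The study's cutoff value for small RNAs, 1000, was applied here to the mean CPM of the snoRNA total. At it, 11 SNORA names were detected in synaptosomes and 19 in chambers, out of 114 and 107 snoRNA names of all kinds. The paper scaled counts to library size and reports fewer snoRNAs in each group, so these are not its own lists. The 4 names in both, SNORA3, SNORA7A, SNORA30 and SNORA44, were 36.4% of the synaptosome list and 21.1% of the chamber list. Over snoRNA names of all kinds, 49 were in both lists, 43.0% and 45.8%. In the entry used, any count at all was found for 34 names in synaptosomes and 43 in chambers, and 20 names were counted in all 3 pools and 33 in all 6 chamber libraries. Chambers had more libraries, among them the deepest, which makes any count likelier there. The matching numbers over all snoRNA names were not counted. SNORA13, SNORA25, SNORA46 and SNORA67 had 0 counts in all 9 libraries. Over the 32 names tested, the correlation of log2(CPM + 100) ran from 0.911 to 0.936 between pools, from 0.784 to 0.952 between chamber libraries and from −0.23 to −0.0443 between a pool and a chamber library, as a description across names that share library and depth. The filter kept names that are high in 1 group alone, which can lower the values between groups, and the 18 names not tested are not in them.

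Of the 50 names 32 passed the filter on low counts. In edgeR's quasi-likelihood test, with Benjamini-Hochberg adjustment over 191 snoRNA names and a limit of 1 on the log2 fold change, 7 were higher and 18 lower in synaptosomes. Among all snoRNA names tested 81.2% were called, 34.6% higher and 46.6% lower, beside 78.1%, 21.9% and 56.2% of the SNORA names. The overall share of calls among SNORA names was thus near that of all snoRNAs. The median log2 fold change was −1.99 over the SNORA names and −0.88 over all names. When levels were taken within the SNORA total alone, 5 names were higher and 25 lower of 35 tested. The filter keeps names that are high in at least 1 group, so these counts do not describe all 50 names.

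**Figure D2:**
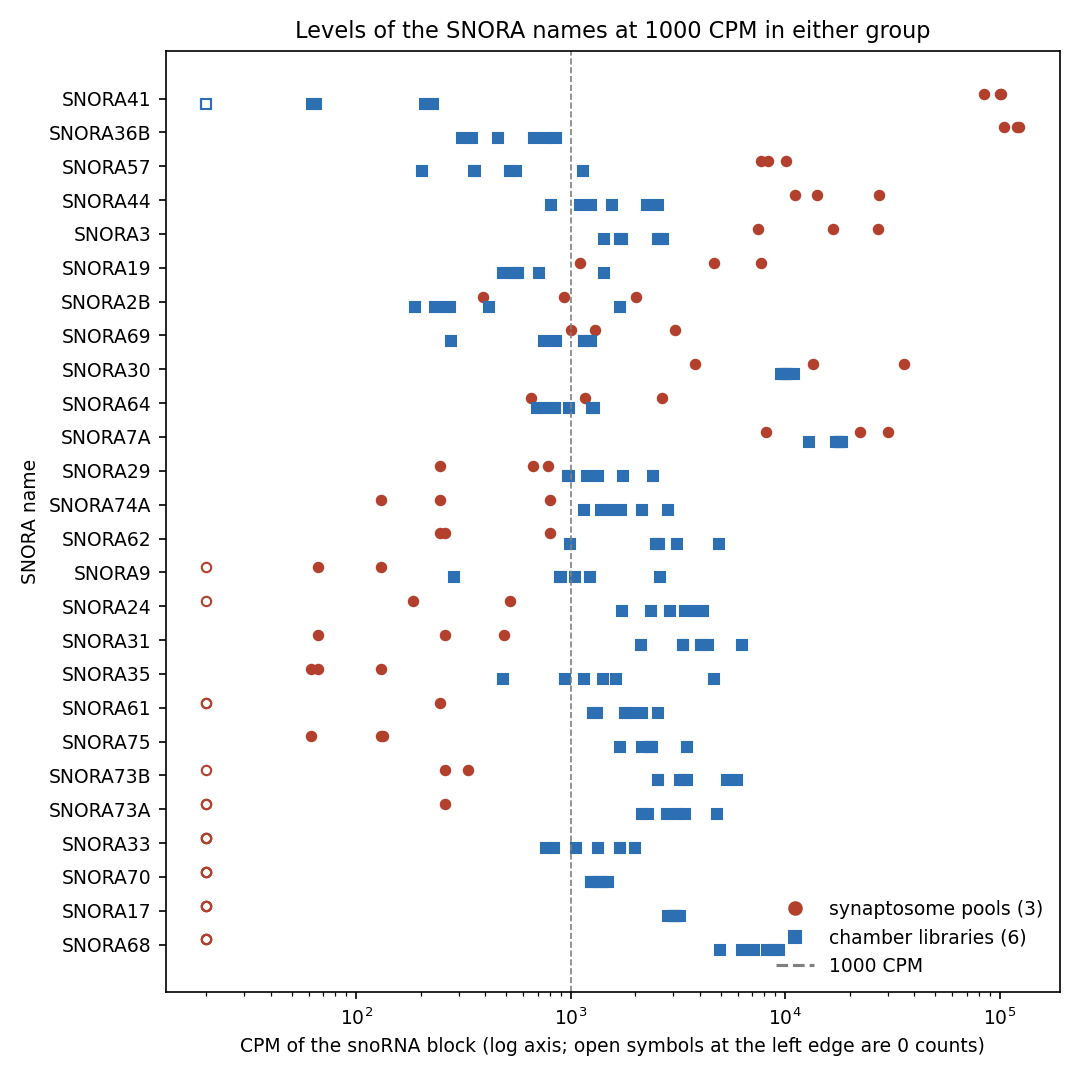
Levels (CPM of the snoRNA total, log axis) of the 26 SNORA names with a mean of at least 1000 CPM in either group, 1 symbol per library, with circles for the 3 synaptosome pools, squares for the 6 chamber libraries, open symbols at the left edge for 0 counts and a dashed line at 1000 CPM. SNORA41 and SNORA36B stand at the top with pools at 83980 to 123000 CPM and all chamber libraries below 1000 CPM, and SNORA68 and SNORA17 at the bottom with 0 counts in all pools in the entry used.

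SNORA36B and SNORA41 were the most abundant SNORA names of the synaptosomes and scarce in chambers. SNORA36B, whose gene lies in Rab3gap2, a regulator of the vesicle GTPase Rab3, had 919, 2006 and 1574 counts in pools 1 to 3 and 5, 37, 20, 32, 7 and 6 counts in C01, C04, C05, C07, C11 and C42. Its level was 115810 ± 9743 CPM (SD, n = 3) against 568 ± 228 CPM (SD, n = 6), a log2 fold change of 7.69 ± 0.31 (SE; edgeR adjusted p = 6.65e-11). No pool came near a chamber library, and its coefficient of variation over pools, 0.0841, was the lowest of the 11 names detected there. SNORA41, from an intron of Eef1b2, had 645, 1658 and 1499 counts in pools 1 to 3 and 0, 11, 4, 10, 1 and 0 in the chamber libraries. It reached 95135 ± 9706 CPM (SD, n = 3) against 94.4 ± 101 CPM (SD, n = 6), a log2 fold change of 9.51 ± 0.46 (SE; edgeR adjusted p = 3.07e-10). In chambers it was scarce, with 26 counts over all 6 libraries and none in C01 and C42. Neither was seen in the same pools by total RNA, where Snora36b and Snora41 had 0 counts in each. In the total RNA of control chambers Snora41 had 2 counts in C1 and 11 in C3, and Snora36b had 1 in Ctrl4. Snora36b also had 1 and 3 counts in the KCl chambers labelled KCL1 and KCL4. For Snora41 the placement in total RNA was thus the reverse, on few counts.

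SNORA44, SNORA3 and SNORA57 rose as well, without overlap between the groups. SNORA44 had 85, 229 and 411 counts in pools 1 to 3 and 16 to 80 in chambers (median 39), and reached 17486 ± 8667 CPM (SD, n = 3) against 1589 ± 682 CPM (SD, n = 6), a log2 fold change of 3.52 ± 0.40 (SE; edgeR adjusted p = 1.49e-06). SNORA3, from the ribosomal protein gene Rpl27a, had 57, 439 and 251 counts in the pools and 18 to 111 in chambers (median 54.5). Its log2 fold change was 3.04 ± 0.38 (SE; edgeR adjusted p = 3.29e-06), with pool 1 the lowest at 7422 CPM and pool 2 the highest at 26920 CPM. SNORA57 had 59, 164 and 125 counts in the pools and 8 to 17 in chambers (median 10.5), and was even across pools at 7682 to 10060 CPM (log2 fold change 4.31 ± 0.42, SE; edgeR adjusted p = 4.04e-07). SNORA19, from the translation factor gene Eif3a, had 59, 18 and 70 counts in the pools and 4 to 34 in chambers. Its groups overlapped, as pool 2 with 1104 CPM lay below C11 with 1433 CPM (log2 fold change 2.64 ± 0.52, SE; edgeR adjusted p = 3.04e-04), and within the SNORA total alone it was not called (0.79, adjusted p = 0.172). Without pool 1 its log2 fold change was 2.03. SNORA2B, from Kansl2, had 3, 33 and 14 counts in the pools and 4 to 15 in chambers. Its call (log2 fold change 1.55 ± 0.68, SE; edgeR adjusted p = 0.0457) was kept in 1 of 8 fits without 1 library, and the fold fell to 0.83 without pool 2.

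The largest group of called names was lower in synaptosomes, and for 6 of them the entry used had no count in any pool. SNORA68 had 103, 239, 403, 390, 144 and 63 counts in C01, C04, C05, C07, C11 and C42, or 7486 ± 1682 CPM (SD, n = 6), and 0 in pools 1 to 3 (edgeR adjusted p = 2.61e-07). Set against a floor of 3 counts over the summed synaptosome total of 39015 (76.9 CPM), SNORA68 was at least 97.4-fold lower in synaptosomes. SNORA17 had 44, 136, 207, 146, 48 and 21 counts in the chamber libraries, 3047 ± 133 CPM (SD, n = 6), and that entry was at least 39.6-fold lower (edgeR adjusted p = 7.09e-07). It was the most even name of the chambers, with a coefficient of variation of 0.0436, and 1 of its 21 entries held 602 of the 640 counts. The other entries held 32 of the remaining counts in synaptosomes, so that with entries summed SNORA17 had 7, 11 and 14 counts in the pools and a log2 fold change of −1.90 (edgeR adjusted p = 2.33e-04). SNORA70, from the ribosomal protein gene Rpl10, had 10 to 90 chamber counts, and the entry used, 1 of 9, was at least 17.7-fold lower. With entries summed it had 1, 3 and 4 counts in the pools and a log2 fold change of −2.72 (edgeR adjusted p = 1.43e-04). SNORA33 of Rps12 was at least 16.6-fold lower, SNORA23 of the importin gene Ipo7 at least 8.64-fold and the entry used of SNORA52 of Rplp2 at least 8.44-fold (summed entries 0, 0 and 2 counts in the pools, log2 fold change −3.50). With entries summed, SNORA17, SNORA70 and SNORA52 were still called lower, and every chamber library lay above every pool. SNORA68, SNORA33 and SNORA23 have 1 entry each and were not detected in synaptosomes at this depth, although Snora23 had 2, 1 and 1 counts in the total RNA of pools 1 to 3.

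SNORA73A and SNORA73B, which act in ribosomal RNA processing, were high in chambers and nearly uncounted in synaptosomes in the small RNA libraries. SNORA73A had 2, 0 and 0 counts in pools 1 to 3 and 31, 135, 147, 151, 74 and 24 in chambers, and SNORA73B had 2, 0 and 5 against 50, 156, 164, 158, 82 and 42. The log2 fold changes were −5.72 ± 0.81 (SE; edgeR adjusted p = 1.30e-05) and −4.38 ± 0.67 (SE; adjusted p = 2.77e-05). With so few synaptosome counts these folds moved when a pool was left out. For SNORA73A pool 1 holds both counts, and the fold was −4.99 without pool 2. For SNORA73B it was −5.40 without pool 3 and −3.65 without pool 2. Both calls stood in all 9 fits without 1 library. In total RNA the placement of Snora73b was the reverse, with 4, 3 and 2 counts in pools 1 to 3, the most of any Snora gene there, and 0 in all 8 control and 3 KCl chambers. The genes are 205 bases each and share a run of 56 bases, so their counts may not be independent.

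Other names fell with counts in synaptosomes left to compare. SNORA31 of Tpt1, a gene whose messenger RNA is under translational control, had 2, 8 and 1 counts in the pools and 44 to 192 in chambers (log2 fold change −3.76 ± 0.59, SE; edgeR adjusted p = 3.42e-05), and SNORA75 of the nucleolin gene Ncl had 1, 1 and 2 against 12 to 165 (−4.49 ± 0.56, SE; adjusted p = 3.74e-06). SNORA24 of Snhg8 had 4, 3 and 0 counts against 29 to 138, with a log2 fold change of −3.94 ± 0.69 (SE; edgeR adjusted p = 1.01e-04). SNORA62 of Rpsa, also known as E2, had 2, 4 and 12 counts against 7 to 162 and fell by 2.62 on the log2 scale (SE 0.57; edgeR adjusted p = 6.60e-04). In these names every chamber library lay above every pool. SNORA9 of Snhg15, with 1, 0 and 1 counts against 2 to 79, and SNORA74A, also known as U19, with 1, 4 and 12 against 20 to 110, had log2 fold changes of −4.37 and −2.05 (edgeR adjusted p = 4.69e-04 and 0.00357), again without overlap. Leaving out a pool moved SNORA31 to −4.76 (pool 2), SNORA9 to −3.66 (pool 2) and −5.03 (pool 1), SNORA24 to −4.91 (pool 1) and −3.25 (pool 3), and SNORA62 to −3.46 and SNORA74A to −3.08 (pool 3), with each call standing. SNORA29, with 6, 4 and 10 counts against 14 to 86, had the smallest change among the names called lower (−1.36 ± 0.52, SE; edgeR adjusted p = 0.0252), and was not called without pool 2 (−0.95, adjusted p = 0.121).

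SNORA35, the H/ACA snoRNA of the Htr2c gene, had 1 count in each pool and 7, 45, 74, 222, 25 and 10 counts in C01, C04, C05, C07, C11 and C42. Its level was 86.0 ± 38.4 CPM (SD, n = 3) in synaptosomes and 1714 ± 1498 CPM (SD, n = 6) in chambers, with C07 at 4664 CPM and the other chamber libraries at 486 to 1628 CPM. Synaptosomes lay below every chamber library (log2 fold change −4.41 ± 0.95, SE; edgeR adjusted p = 5.61e-04), and without C07 the value was −3.74 with the call kept. The coefficient of variation over chambers, 0.874, was the highest of the 19 names detected there. The microRNAs that lie within Htr2c were counted in synaptosomes and not in chambers, with 4990, 14998 and 6955 counts summed over 11 arms in pools 1 to 3, most of them miR-1298-5p (4256, 14240 and 5813), and 0 in all 6 chamber libraries. The chamber libraries held only 475 to 2104 microRNA counts each. At the level of pool 1, 2 or 3 relative to all microRNA counts, 5.05, 7.33 or 2.30 counts would fall in the 6 libraries together, and 0.161 to 2.27 in a single one. In total RNA, Htr2c itself had 7.24 to 8.22 CPM in synaptosomes and 0.207 to 56.7 CPM in control chambers, and Snora35 had 38 counts in the control chamber labelled Ctrl3, 1 in C3 and 0 in the other 6.

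Members of 1 host gene did not move together in Snhg12, a non-coding gene that holds SNORA16A, SNORA44 and SNORA61. SNORA44 rose, as above, and was the only one of the 3 with a count in every pool. SNORA61 had 0, 4 and 0 counts in pools 1 to 3 and 31, 61, 85, 85, 29 and 18 in chambers (log2 fold change −4.11 ± 0.75, SE; edgeR adjusted p = 1.38e-04). All its synaptosome counts came from pool 2, without which the pools are at 0, and the fold was −3.47 without pool 3. SNORA16A had 0, 2 and 4 counts in the pools and 3 to 49 in chambers (−1.92 ± 0.78, SE; edgeR adjusted p = 0.0328), with overlap between the groups and no call without pool 1 (−1.56, adjusted p = 0.0848) or pool 2 (−1.77, adjusted p = 0.11). The fold was −2.78 without pool 3. Snhg12 itself had 1.00 ± 0.08 CPM (SD, n = 3) in synaptosome total RNA and 8.66 ± 4.14 CPM (SD, n = 8) in control chambers. The 2 members of Snhg3 both fell, and of the 2 of Kansl2 SNORA2B was called higher and SNORA34 was not called.

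**Figure D3:**
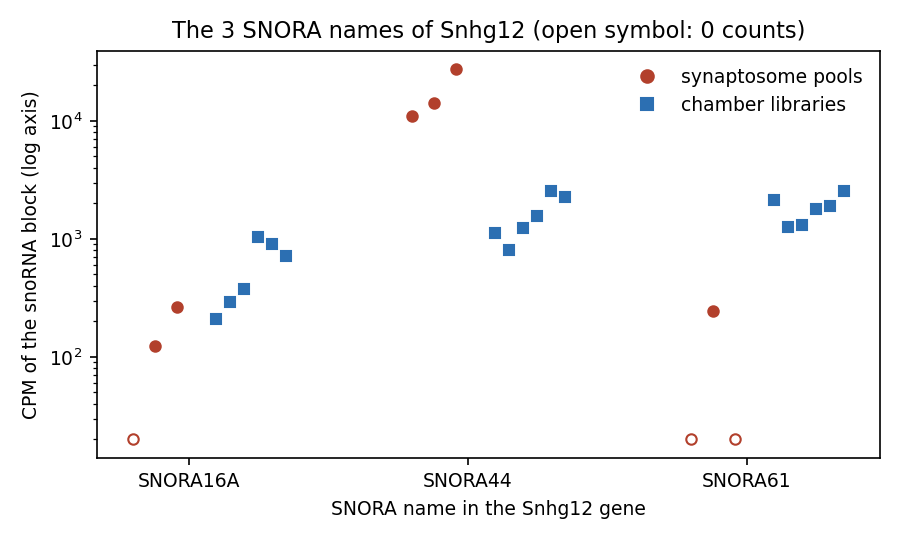
Levels (CPM of the snoRNA total, log axis) of the 3 SNORA names in the Snhg12 gene, 1 symbol per library, with circles for synaptosome pools, squares for chamber libraries and open circles for 0 counts. The pools of SNORA44 (11070 to 27350 CPM) lie above all chamber libraries (811 to 2540 CPM), whereas those of SNORA61 (0 to 245 CPM) lie below them (1269 to 2558 CPM).

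Among the 7 names tested and not called were some of the most abundant. SNORA7A had 172, 133 and 451 counts in pools 1 to 3 and 257, 619, 1140, 819, 281 and 126 in C01, C04, C05, C07, C11 and C42, and was the first SNORA name of every chamber library. Its level was 20186 ± 11090 CPM (SD, n = 3) against 16977 ± 2039 CPM (SD, n = 6), with pools on both sides of the chamber range (log2 fold change 0.25 ± 0.33, SE; edgeR adjusted p = 0.484; −0.10 with TMM scaling and −1.66 within the SNORA total, where it was called lower with an adjusted p of 4.78e-04). SNORA30, from an intron of Srcap, had 29, 582 and 202 counts in the pools and 73 to 644 in chambers. It was even across chambers (9574 to 10960 CPM) and spread over pools (3776, 35690 and 13440 CPM), and its log2 fold change of 0.81 ± 0.44 (SE; edgeR adjusted p = 0.102) became a call without pool 1 (1.28, adjusted p = 8.78e-04) and was −0.21 without pool 2. SNORA69 (10, 50 and 15 counts in the pools, 4 to 74 in chambers), SNORA64 (5, 19 and 40 against 9 to 63), SNORA34 (9, 5 and 13 against 5 to 81), SNORA28 (6, 2 and 0 against 7 to 40) and SNORA21 (3, 7 and 1 against 6 to 43) had log2 fold changes of 0.98, 0.67, −0.30, −1.63 and −1.20. Leaving out 1 library turned SNORA69 into a call (1.28 without pool 3), as it did SNORA28 (−3.43 without pool 1) and SNORA21 (−1.78 without pool 2). Other left-out pools moved them the other way, SNORA69 to 0.30 (pool 2), SNORA28 to −0.92 (pool 3) and SNORA21 to −0.67 (pool 3). Failing the threshold does not show that these names were equal in the groups.

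The 18 names that did not enter the test were low or uneven between libraries, and their counts are those of the entry used. SNORA5C (7 counts in synaptosomes, 92 in chambers), SNORA65 (18 and 75), SNORA20 (36 and 49) and SNORA73 (0 and 19) had the most counts. SNORA20 had 0, 4 and 32 counts in pools 1 to 3, with a mean of 791 CPM that rests mostly on pool 3. SNORA55 had 2, 9 and 2 counts in the pools and 0 in every chamber library (with its 3 entries summed 2, 12 and 12, against 2 counts over all chambers), and SNORA32 and SNORA38 had 3 and 2 counts in pool 2 alone. SNORA36 had 8 of its 14 counts in C42. SNORA4, SNORA26, SNORA42, SNORA43 and SNORA66 had 0 counts in synaptosomes and 1 to 6 in chambers, and SNORA76 had 7 and 5.

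MicroRNAs that lie within SNORA36B, SNORA19 and SNORA34 had counts of a size with those of the snoRNA itself in several pools. In synaptosomes the microRNA part of the tables gave miR-664-3p 848, 397 and 1024 counts and miR-664-5p 55, 1102 and 412 counts in pools 1 to 3. Their sums, 903, 1499 and 1436, came to 98.3%, 74.7% and 91.2% of the SNORA36B counts of 919, 2006 and 1574. The arm with more counts differed between pools, the 5p arm in pool 2 and the 3p arm in pools 1 and 3, while the SNORA36B level was even. For SNORA19 the 2 arms of miR-3084, which a second gene on the same chromosome also encodes, summed to 50, 10 and 61 counts, or 84.7%, 55.6% and 87.1%. For SNORA34, miR-1291 had 4, 0 and 9 counts beside 9, 5 and 13. In chambers miR-664 had 0 to 2 counts in a library against 5 to 37 of SNORA36B, and miR-3084 and miR-1291 together had 1 count in all 6. At the synaptosome level relative to all microRNA counts, a chamber library would hold 0.044 to 0.2 counts of miR-664. Whether the same reads were counted in both parts of the tables was not tested, as the tables hold no reads. SNORA41 contains no mature microRNA of the RefSeq table.

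**Figure D4:**
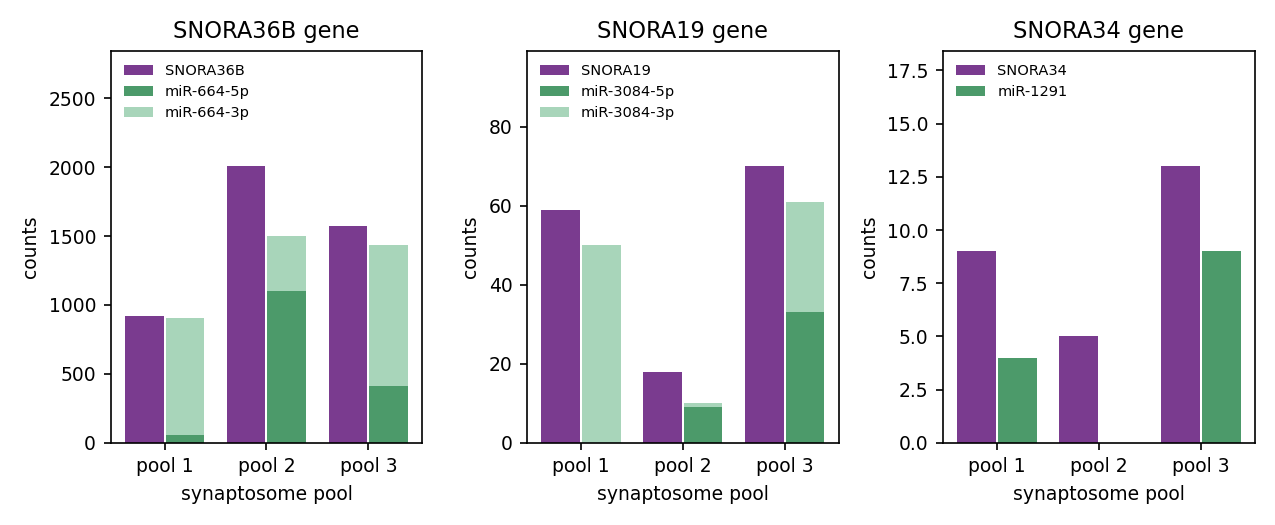
Counts in synaptosome pools 1 to 3 of SNORA36B, SNORA19 and SNORA34 from the snoRNA part of the tables (left bar of each pair) beside the stacked counts of the mature microRNAs inside the same gene (right bar). The arms of miR-664 reach 903, 1499 and 1436 counts next to 919, 2006 and 1574 of SNORA36B, with miR-664-3p the larger arm in pools 1 and 3 and miR-664-5p in pool 2.

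Predicted snoRNA names that share sequence with a member carried nearly equal counts in some cases, and for several the relation differed between synaptosomes and chambers. Of the 36 members with a GENCODE gene, 18 share a run of at least 18 bases with another name of the tables that has at least 20 counts. GM27607, which shares bases 101 to 138 of SNORA7A, had 172, 120 and 449 counts in pools 1 to 3 beside 172, 133 and 451 of SNORA7A. In chambers it had 7 counts in all 6 libraries beside 3242 of SNORA7A, so the counts of the 2 names ran together in synaptosomes (98.0%) and not in chambers (0.216%). GM26132, which shares bases 44 to 108 of SNORA57, had 58, 164 and 125 counts beside 59, 164 and 125 in the pools, and 28 beside 71 (39.4%) in chambers. GM24698, which shares bases 51 to 91 of SNORA3, had 60.5% as many counts as SNORA3 in synaptosomes and 29.3% as many in chambers. GM25133, which shares the first 64 bases of SNORA30, had 99.9% and 98.5% as many as SNORA30, in both groups alike. GM23723 shares bases 28 to 105 of SNORA41 and had 32 counts in synaptosomes beside 3802. These ratios were seen first and were not tested. Names that share reads are uncertain as to their gene, and how the authors' counting treated a read that fits several names is not given in the sources used here.

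**Figure D5:**
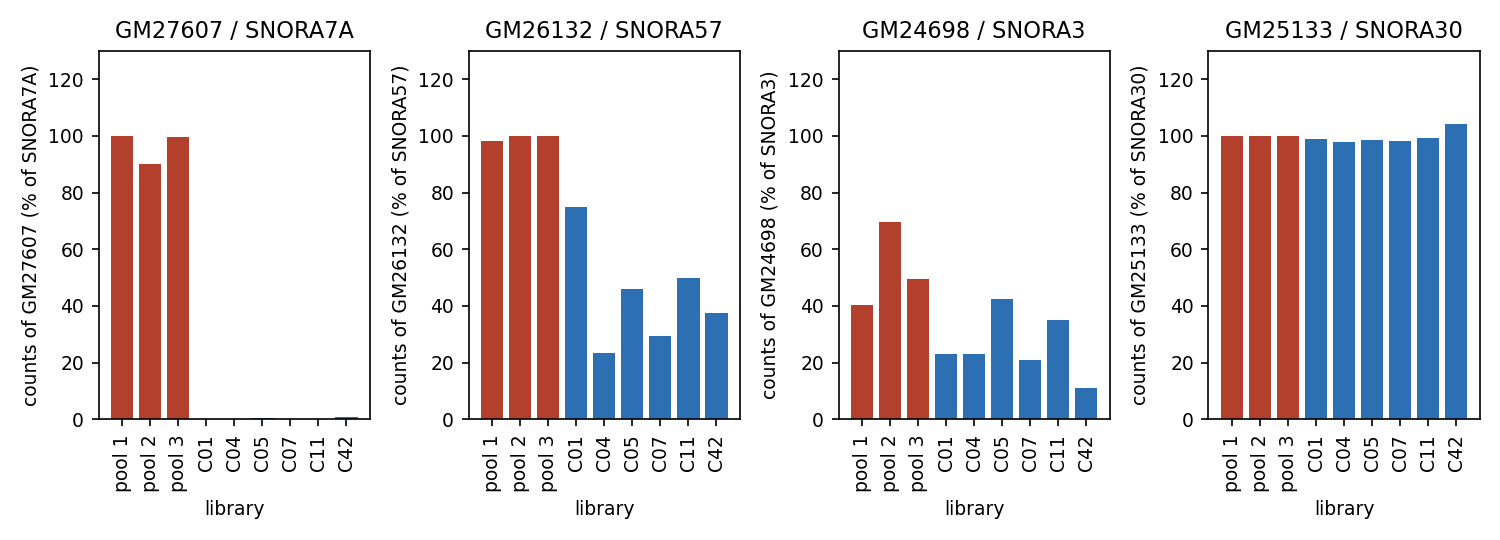
Counts of 4 predicted snoRNA names as a percentage of the SNORA name they share sequence with, 1 bar per library (3 synaptosome pools, then 6 chamber libraries). GM27607 stands near the level of SNORA7A in the pools and near 0 in chambers (98.0% and 0.216% over the groups), whereas GM25133 runs with SNORA30 in both (99.9% and 98.5%).

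Messenger RNAs for the proteins of the H/ACA particle were low in synaptosome total RNA. Dkc1 had 19, 24 and 22 counts in pools 1 to 3, or 1.36 ± 0.08 CPM (SD, n = 3), and 32.0 ± 18.4 CPM (SD, n = 8) in control chambers. Nop10, Nhp2 and Gar1 had 0.989, 1.02 and 0.332 CPM in synaptosomes and 24.3, 17.5 and 11.7 CPM in chambers (medians 13.5, 9.0 and 13.8). Without sc3 the chamber means were 12.4, 9.22 and 11.3 CPM. None of these 4, of 8 assembly factors of the particle or of 12 pseudouridine synthases reached the study's cutoffs of 50 CPM in synaptosomes and 100 CPM in chambers, and the 4 C/D box core proteins did not either. The share of all genes at these cutoffs was not counted, so missing them is not a result about the particle. The telomerase RNA Terc, which carries an H/ACA domain, had 0 counts in synaptosomes and in 6 of the 8 control chambers (chamber mean 0.217 CPM). Kits differed between these tables, so the levels stand side by side without a test.

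Of the 36 members with an annotated gene 33 lay within a host gene on the same strand, and 13 of them within introns only. For 32 members a host, 28 genes in all, was in the total RNA table, 15 of them genes of ribosomal proteins, translation factors or Tpt1. No host reached the cutoff of 50 CPM in synaptosomes, and 9 reached the cutoff of 100 CPM in chambers. The cutoffs are unlike and the share of all genes at them was not counted, so these counts are not a result about hosts. Across these 32 members the level of the snoRNA and of its host had a Spearman correlation of 0.335 in synaptosomes and −0.127 in chambers, as a description across genes that share libraries. Gene length and log2 fold change had a Spearman correlation of −0.0703 over 31 members, and the median length was 132 bases for the 7 names called higher and 133 for 17 called lower.

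Total RNA gave few counts for H/ACA genes. Of 36 members in that table, 5 had a count in synaptosomes, with 18 counts of all Snora genes in total among 14714196 to 16667516 counts a library, and 18 had a count in control chambers. Every member at 0 in all total RNA libraries, other than Snora19, overlaps an exon of another gene on the same strand. Snora2b, Snora5c, Snora28 and Snora33 do so too and had counts. How reads that fit both genes were counted was not tested, so a 0 here does not show that the RNA was absent. Snora21, Snora17 and Snora23 were the ones counted most widely, Snora21 with 39, 129, 74, 9, 214, 62, 2 and 3 counts in C1, C2, C3, C9, C11, Ctrl3, Ctrl4 and sc3. Its level ran from 0.0621 CPM in sc3, the deepest of the controls, to 44.6 CPM. KCl depolarizes neurons, and KCl chambers were compared with controls in 1 fit over all genes. The fit held a term for the kind of title, a bare number or one with letters. All KCl titles have letters, so the KCl estimate rests on the lettered controls Ctrl3, Ctrl4 and sc3. Of 7 Snora genes tested, 0 were called (0 also at an unadjusted p under 0.05, and 0 by DESeq2), where 0.00354% of 28232 genes were called, a single gene. Without the term for the title, the median log2 fold change of the Snora genes was 0.365, against 2.19 with it. In some alternatives Snora genes had an unadjusted edgeR p under 0.05, 4 of 20 with no filter other than 1 count and 3 of 6 without Ctrl4. None of them was called. Over all genes DESeq2 called 406 higher and 9 lower, and edgeR without sc3 called 1013 and 85, with 0 Snora genes among them. Snora21 had a log2 fold change of 2.19 ± 1.26 (SE; edgeR adjusted p = 0.873) and Snora62 one of 4.56 ± 2.44 (SE; adjusted p = 0.841), with Snora62 at 0 in C9, Ctrl3, sc3 and the KCl chamber labelled KCL1a. The errors are wide, so changes of this size were not detectable in these libraries.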

How the data were processed

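Per the submitters' processing notes, the authors used bcl2fastq 2.20.2 and cutadapt 1.11.0, counted small RNAs with mirdeep2 and Bowtie 1.1.2 (snoRNAs against snOPY) and total RNA with STAR 2.5.2b (mm10) and featureCounts 1.5.1. The deposited tables hold raw counts per library, as the authors counted them. The 60 further per-sample columns (scaled values and lncRNA tables) were not used. Levels are CPM of the snoRNA total. For a name with several entries, the entry of highest mean level was used in both groups, with the sum of entries as an alternative.

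Groups came from the sample labels. edgeR 4.0.16 (quasi-likelihood, snoRNA totals as library sizes, filterByExpr, R 4.3.3) was fitted on all snoRNA names, and names were called where the Benjamini-Hochberg adjusted p was 0.05 or less and the log2 fold change exceeded 1 in size. KCl was tested on the whole total RNA table with TMM and a term for the kind of title. Standard errors were taken from the F statistic. Alternatives used DESeq2 1.42.0, limma 3.58.1 (voom), other scalings, filters and left-out libraries. Shares were compared by exact permutation with scipy 1.17.1. The tests were tried on simulated data. Genes and sequences are from GENCODE vM21 and RefSeq (GRCm38), the build of mm10, and 35 of 50 names matched a RefSeq symbol. Named were all SNORA names at 1000 CPM in either group or in the study's tables, the 10 called names of largest change each way, SNORA35, names whose entries differ, and the rest by counts. Members and lists were chosen with earlier results of these data known.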

Additional observations from a re-analysis of the deposited data

Results flagged for a closer look

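Among the 6 chamber libraries, the library farthest out was set against the range of the group for each of the 32 tested names, a rule that chance meets in about 1 of 20 groups. For 4 names a library stood apart. SNORA35 was highest in C07, at 4664 CPM with the next library at 1628 CPM and a median of 1286 CPM. SNORA19 was highest in C11, at 1433 CPM with the next at 714 CPM. SNORA2B was highest in C42, at 1705 CPM with the next at 416 CPM, which rests on 12 counts. SNORA7A was lowest in C04, at 12880 CPM with the next at 17210 CPM. The causes were not tested.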

How the results depend on the processing

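Counts of called SNORA names kept within 1.5 times of 25 under every alternative run (22 to 30). Of the 25 called names, 21 kept their call under every alternative that tested them, 5 higher and 16 lower, and SNORA2B, SNORA16A, SNORA19 and SNORA29 lost it under at least 1. Over all tested names, scaling moved the median log2 fold change from −0.88 to −1.21 with TMM, −0.63 with DESeq2 and −2.88 within the SNORA total, so small changes depend on it. Within the SNORA total the sign turned for SNORA2B (−0.45), SNORA30 (−1.22), SNORA64 (−1.29), SNORA69 (−0.99) and SNORA7A (−1.66), with TMM for SNORA7A (−0.10), and with a total without SNORA36B and SNORA41 for SNORA34 (0.034). That total was added after the data had been seen. Without 1 library SNORA30 ran from −0.21 to 1.28, SNORA34 from −0.66 to 0.12 (0.014 without C07), SNORA64 from −0.03 to 0.99 and SNORA7A from −0.16 to 0.63. The difference in SNORA share was 21.3 to 24.3 points without 1 library; without a pool the exact test cannot pass (smallest p 0.0714). It was 4.14 points without SNORA36B and SNORA41 (p = 0.0714). Names at the cutoff in chambers numbered 11 at 2000 CPM, 31 at 500 CPM and 33 without predicted names in the total, against 19. In the KCl comparison 0 Snora genes were called under every alternative run (genes of all kinds called: 1, against 406 higher and 9 lower with DESeq2), 0 also with a replicate block by title number. Same-numbered libraries correlated at 0.0428 and −0.114 (KCL1 and KCL1a, both with C1) and −0.308 (KCL4 with Ctrl4). So few values cannot show whether the numbers pair the libraries. No paired analysis was possible for synaptosomes against chambers because pools and cultures share no animal. Synaptosome depth limits a single name to steps of 61.3 to 130 CPM.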
